A study of Mus musculus with 4 samples.

Results

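Residual B16 melanoma cells are tumour cells that stayed in a suspension selected for CD45, the surface protein of leukocytes. They made up 1171 of the 8838 barcodes of the count matrix, 350 and 271 in the Adar1-null libraries S1 and S2, and 259 and 291 in the control libraries S3 and S4. They were chosen on raw counts of unique molecular identifiers (UMIs, each standing for 1 captured transcript). A cell needed at least 10 UMIs of the melanocyte genes Mlana and Dct together. It could hold at most 1 UMI of Ptprc (the gene of CD45), 1 of the macrophage receptor gene Csf1r, and 1 of the T cell receptor subunit genes Cd3d, Cd3e and Cd3g together. Cells under 500 genes or over 10% mitochondrial UMIs were left out.

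B16-F10 is a pigmented mouse melanoma line of C57BL/6 origin. The study implanted the cells with matrigel into C57BL/6 mice and took the tumours on day 14. Libraries S1 and S2 came from Adar1 null tumours, and S3 and S4 from control tumours, so the genotype is that of the melanoma cells described here, while the host strain was the same in both groups. Tumours were digested for 10 min at 37 °C with DNAse I and collagenase P, passed over an Optiprep gradient and selected for CD45 on magnetic columns before 10x 3′ v2 library preparation. How the null line was made, whether it was 1 clone, the age of the mice and which mouse gave which library are not stated in the labels, so that p-values measure the spread between these libraries, which may be technical.

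Melanocytes make melanin in melanosomes from tyrosine, with the enzymes Tyr, Tyrp1 and Dct acting on a fibrillar matrix built from Pmel, and the transcription factor Mitf drives many of these genes. Interferons signal through surface receptors to interferon-stimulated genes, and interferon-gamma in particular raises the MHC class I pathway, which B16 cells are known to express at low levels without it. Adar1, encoded by Adar, deaminates adenosines in double-stranded RNA, and its loss is known to let endogenous double-stranded RNA reach the sensors Ifih1 and Eif2ak2. Tumour cells short of oxygen or nutrients switch on hypoxia genes such as Car9 and Vegfa and the integrated stress response, whose factors include Atf4 and Ddit3.

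The chosen cells carried the melanoma markers in every library. All levels are given as counts per 1e6 UMIs (CPM) of the summed cells of a library. Pmel was at 397 and 433 CPM in the Adar1-null libraries S1 and S2, and at 383 and 311 CPM in the control libraries S3 and S4. Syngr1, a vesicle protein gene, was at 1284 and 1422 CPM in null S1 and S2, and at 1369 and 1445 CPM in control S3 and S4. Mlph, which links melanosomes to their motor, lay between 217 and 231 CPM in all 4 libraries, and the small heat shock protein gene Cryab between 992 and 1121 CPM. Since Mlana and Dct chose the cells, their levels are a description: pooled over the majority of the cells defined next, Mlana stood at 1863 CPM against 114 CPM in the other 7506 kept cells of the libraries, and Dct at 2487 against 127 CPM. The 4 markers that the rule did not use had been named for these cells beforehand, so that their levels are a description too and no test of the label.

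The cells were deep, with median totals of 29281 and 32503 UMIs in null S1 and S2 and of 34152 and 34859 UMIs in control S3 and S4, while the other kept cells of the libraries had medians of 6913 to 8048 UMIs. Their median share of mitochondrial UMIs lay between 5.50% and 5.69%. Of 1276 kept cells with enough Mlana and Dct, 105 failed the immune limits, 27 for Ptprc, 41 for Csf1r and 54 for Cd3. Few cells lay at the edge of the rule: 8 members had 10 to 12 UMIs of Mlana and Dct, 11 cells just outside had 7 to 9, and 1080 members had 50 or more. The 8 cells inside had a median of 2 Tyrp1 and 1 Tyrobp UMIs, and the 11 outside a median of 1 of each. Tyrobp is a myeloid signalling gene. In all, 38 barcodes occurred in more than 1 library, and 7 members carried such a barcode, none shared by 2 members.

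Clustering of the melanoma cells gave 7 clusters, grouped here into 3 populations, of which the majority joins several clusters. Their genes are described below without a test, since the clusters were made from these genes. The majority held 1048 cells. A small sub-cluster of 92 cells was led by Igtp, Prph, Car9, Iigp1, Gbp4 and Gbp2, and is called the Prph-Car9 cells here after leading genes, although a Prph UMI was found in 40.2% of these cells, against 80.4% for Car9, 95.7% for Tinagl1 and 98.9% for Car6. It made up 7.14% and 7.01% of the melanoma cells in the Adar1-null libraries (25 and 19 cells) and 9.27% and 8.25% in the control libraries (24 cells each). The difference of the group means was -1.68 percentage points, with p = 0.33 in an exact two-sided permutation test, the smallest that the 6 splits of 4 libraries allow. In a coarser clustering (resolution 0.3 instead of 0.5) all 92 cells lay in a larger cluster of 123 cells. That cluster held 39 and 21 cells in null S1 and S2 and 34 and 29 in control S3 and S4. At resolution 0.8 the 92 cells again formed a cluster of their own, so their boundary depends on the setting. Of the 92 cells, 0 passed the doublet score of 0.1, against 1 of the 1048 majority cells. Only 16 of the 31 myeloid-marked cells described next passed it, so that a low score does not show that a barcode held a single cell. Their median depth was 31502.5 UMIs against 32731.5 UMIs in the majority, and was lowest in S2, at 22948 UMIs.

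Another group of 31 cells, 14 and 2 in null S1 and S2 and 10 and 5 in control S3 and S4, was led by Xist, Tgfbi, Ly86, Fcgr1 and Arg1, most of them genes of monocytes and macrophages. In these myeloid-marked cells the myeloid markers summed to 11729 CPM, against 636 CPM in the majority, and 16 of the 31 passed the doublet score. They are kept apart where the majority and the Prph-Car9 cells are described. Values over all melanoma cells include them. The repeats without this group also left out the Prph-Car9 cells.

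**Figure D1:**
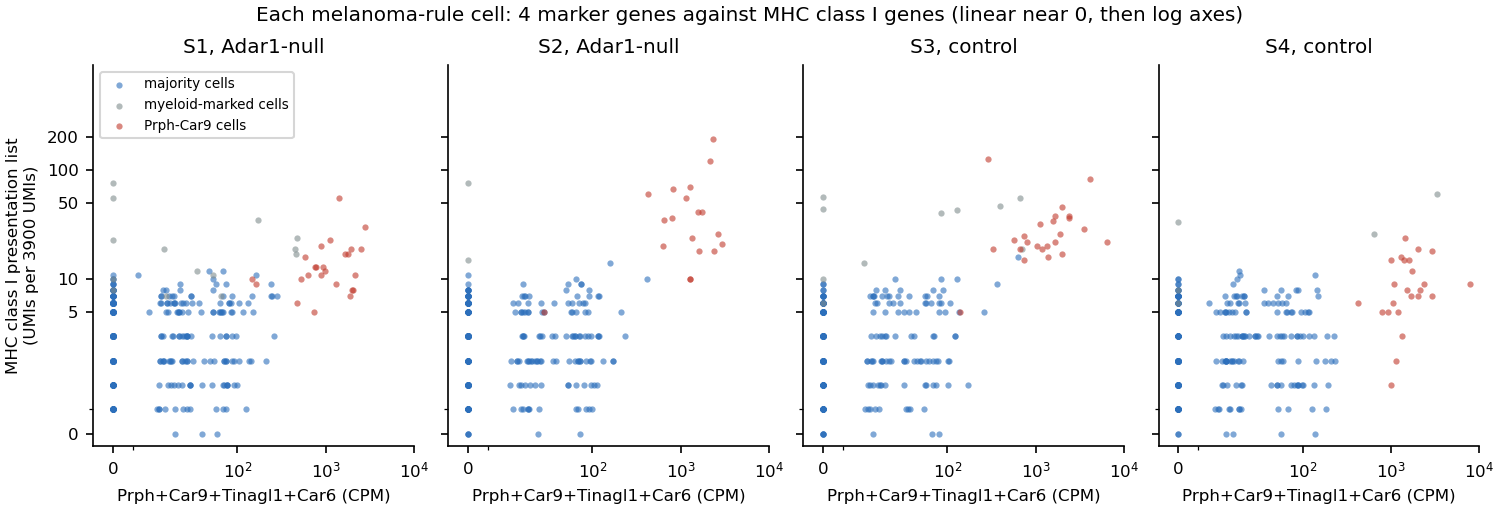
Each point is 1 melanoma cell, placed by the summed level of Prph, Car9, Tinagl1 and Car6 (CPM, x axis) and by its UMIs of the MHC class I presentation list after thinning to 3900 UMIs (y axis), in 1 panel per library; both axes are linear near 0 and logarithmic beyond. The Prph-Car9 cells (red) lie mostly to the right of the majority (blue), with a median of 1329 CPM for the 4 genes against 0 CPM; the lowest of them in S1, S2 and S3 overlap the highest majority cells, and their MHC class I counts reach highest in S2 and S3.

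The Prph-Car9 cells were melanoma cells with a different pigment balance in their summed levels. Pmel was at 1396 and 2938 CPM in the Prph-Car9 cells of S1 and S2 and at 1617 and 775 CPM in those of S3 and S4, against 237 to 297 CPM in the majority cells of the 4 libraries. Tyr, the rate-limiting enzyme of melanin synthesis, was at 174 and 215 CPM in null S1 and S2 and at 136 and 314 CPM in control S3 and S4, against 49.2 to 53.7 CPM in the majority. Both genes were higher in the Prph-Car9 cells of every library, with no overlap. Oca2, a melanosome chloride channel gene, pooled to 31.5 CPM against 7.20 CPM, the melanosome transporter gene Slc45a2 to 405 against 184 CPM, Trpm1, a melanocyte channel gene, to 512 against 187 CPM, and Mitf to 307 against 162 CPM. Not all pigment genes differed in this way. Tyrp1 pooled to 2173 CPM in the Prph-Car9 cells and 1902 CPM in the majority, and Mlana to 1837 and 1863 CPM. Other markers lay lower in the Prph-Car9 cells: Mlph pooled to 101 CPM against 235 CPM, Cryab to 600 against 1119 CPM, and Syngr1 to 1059 against 1418 CPM. Sox10, a melanocyte lineage factor, was at 83.7 CPM against 113 CPM.

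**Figure D2:**
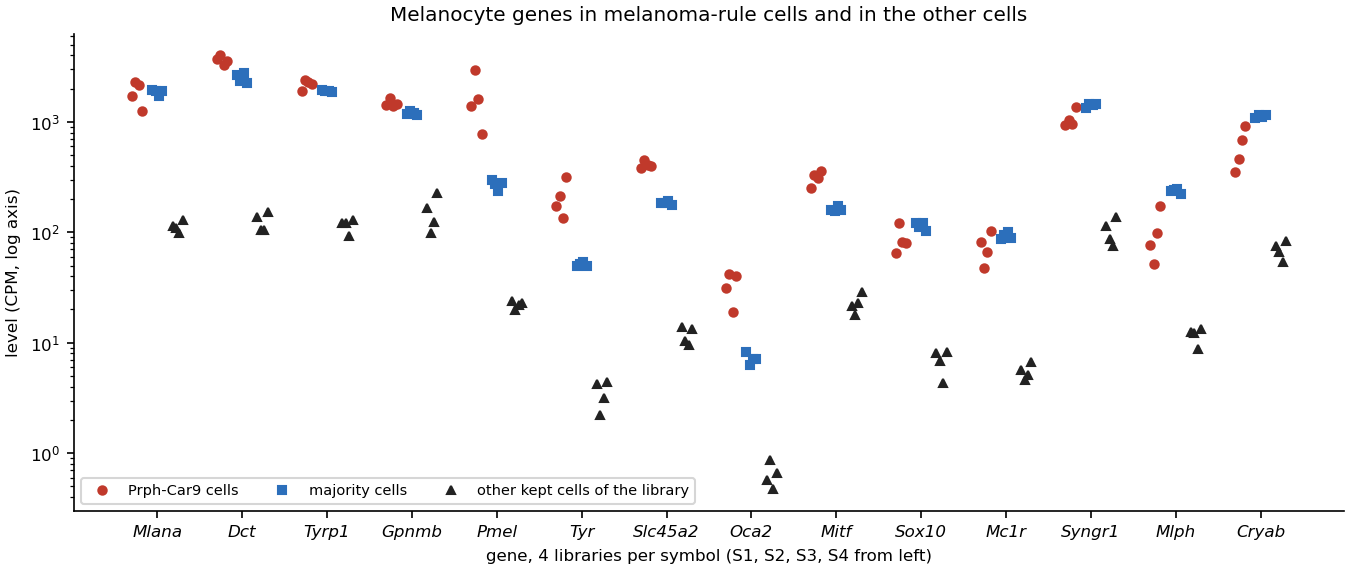
Levels of 14 melanocyte genes (CPM, logarithmic y axis) in Prph-Car9 cells (red circles), majority cells (blue squares) and the other kept cells of the same libraries (black triangles), with 4 points per gene, from the Adar1-null libraries S1 and S2 and the control libraries S3 and S4. Pmel, Tyr, Slc45a2, Oca2 and Mitf stand higher in the Prph-Car9 cells of all 4 libraries than in any majority sum, Mlph and Cryab stand lower, and the other cells lie far below both.

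The listed interferon and MHC class I genes stood higher in the Prph-Car9 cells than in the majority of every library, by unequal amounts. These lists had been left out of the clustering, but genes outside them that may vary with them had not. The difference is therefore a description and no independent result. The 53 measured type I interferon-stimulated genes summed to 2248 and 8139 CPM in the Prph-Car9 cells of S1 and S2, and to 6132 and 1637 CPM in those of S3 and S4. In the majority the same sum was 326 and 404 CPM in null S1 and S2, and 309 and 322 CPM in control S3 and S4. The 30 measured interferon-gamma-induced genes summed to 1402 and 6102 CPM in null S1 and S2 and to 4296 and 562 CPM in control S3 and S4, against 252 to 303 CPM in the majority. The high libraries were thus S2 and S3, 1 of each genotype, and the low ones S1 and S4. In the other kept cells, the type I list had its highest sums in the same libraries, at 6804 and 10365 CPM in null S1 and S2 and 7616 and 5268 CPM in control S3 and S4; whether the levels of immune and melanoma cells depend on each other was not tested.

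Single genes were again highest in S2 and S3. Igtp, an interferon-gamma-induced GTPase gene, was at 33.3 and 489 CPM in the Prph-Car9 cells of S1 and S2 and at 188 and 15.2 CPM in those of S3 and S4, against at most 1.69 CPM in the majority. Gbp2, a guanylate-binding protein gene, was at 143 and 640 CPM in null S1 and S2 and at 401 and 15.2 CPM in control S3 and S4. In the majority it stood between 3.42 and 3.88 CPM. The class I heavy chain gene H2-K1 was at 345 and 817 CPM in the Prph-Car9 cells of S1 and S2 and at 724 and 144 CPM in those of S3 and S4, against 30.6 to 35.2 CPM in the majority. B2m, the class I light chain gene, was at 1682 and 4134 CPM in null S1 and S2 and at 3806 and 1097 CPM in control S3 and S4, against 193 to 226 CPM. Psmb9, an immunoproteasome subunit gene, was at 127 and 362 CPM in null S1 and S2 and at 383 and 37.3 CPM in control S3 and S4, against 2.87 to 5.08 CPM. The lowest Prph-Car9 library still exceeded every majority sum for each of these 5 genes. The RNA sensor list followed, with 241 and 771 CPM in null S1 and S2, 570 and 203 CPM in control S3 and S4, and 110 to 129 CPM in the majority, whereas Eif2ak2 was at 24.4 and 64.8 CPM in null S1 and S2 and at 39.0 and 23.5 CPM in control S3 and S4, next to 21.1 to 25.2 CPM in the majority.

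Droplets also take up free RNA from other cells, so each level was set against that of the other kept cells of the library, for list genes of at least 100 CPM there. In the majority the median gene of the type I interferon list was at 2.46% of its level in the other cells, and that of the interferon-gamma list at 1.48%. The myeloid markers were at 1.77% there, and the T and NK cell markers at 1.45%. The 14 type I genes of this measure lay between 1.01% and 13.2%. The type I median lay above the myeloid median in each of the 4 libraries, for example at 2.58% against 1.84% in S1. The part of free RNA in these levels was not tested. The median MHC class I gene of the majority was at 3.83%. Pooled over libraries, the median genes of the type I, interferon-gamma and class I lists were at 51.8%, 53.7% and 51.3% in the Prph-Car9 cells. The myeloid and the T and NK markers were at 2.87% and 1.01%. The type I median was 25.8% and 63.1% in null S1 and S2, and 76.7% and 18.1% in control S3 and S4. The interferon-gamma median was 24.3% and 67.4% in null S1 and S2, and 74.8% and 11.1% in control S3 and S4. The class I median was also lower in S1 and S4, at 31.7% and 23.9%, than in S2 and S3. The myeloid median lay between 2.27% and 3.08% by library. Single type I genes lay between 3.91% and 192%. Of the myeloid list, Cd74, the MHC class II chaperone gene, reached 183 and 1106 CPM in null S1 and S2 and 673 and 64.9 CPM in control S3 and S4, against 25.1 to 45.0 CPM in the majority. The 19 measured myeloid markers together summed to 1112 and 3089 CPM in the Prph-Car9 cells of S1 and S2 and to 2362 and 897 CPM in those of S3 and S4. In the majority they summed to 633 and 523 CPM in null S1 and S2 and to 560 and 796 CPM in control S3 and S4. The list thus stood higher in the Prph-Car9 cells and was highest in the same libraries as the interferon lists. At equal depth 73.7% of the Prph-Car9 cells of S2 held 5 or more myeloid UMIs, and their type I interferon and myeloid UMIs correlated over cells at 0.31 and 0.65 in null S1 and S2 (25 and 19 cells) and at 0.30 and 0.11 in control S3 and S4 (24 cells each). The part of myeloid RNA in the interferon levels was not tested. Of the list, Tyrobp was at 41.9 to 67.7 CPM in the Prph-Car9 cells, against 38.2 to 56.9 CPM in the majority, and Lyz2 at 62.4 to 143 CPM, against 54.4 to 165 CPM.

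Start regions are shown for 6 genes, chosen after their levels were seen, to place the binding letters of factors of the pigment, interferon and hypoxia programs; the pigment gene Tyrp1 overlapped, at 1896 to 2382 CPM in the Prph-Car9 cells and 1855 to 1953 CPM in the majority, and the other 5 stood higher in the Prph-Car9 cells. Windows of 300 bases are from RefSeq on GRCm38.p6, each read 5′ to 3′ on the gene's strand; Pmel, Mlana and Gbp4 were not among the entries used. Both strands were searched for the Mitf core CATGTG or CACATG, the interferon-stimulated response element (ISRE) (TTTC and TTTC, or GAAA and GAAA, with any 2 bases between), the gamma-activated site (GAS) TTCNNNGAA, and the hypoxia core ACGTG or CACGT. The motifs occurred in 14.2%, 3.44%, 8.30% and 19.6% of all 32851 windows of this length. Capitals mark the matches, which are descriptions of letters and not of binding. Tyr (chr7:87493463-87493762, minus strand) and Tyrp1 (chr4:80833963-80834262, plus strand) hold CATGTG, at -21 and -46 from the start site. Igtp (chr11:58199306-58199605, plus strand) holds a GAS at -45, an ISRE at -34 and ACGTG at -83. Gbp2 (chr3:142620413-142620712, plus strand) holds an ISRE at -59, B2m (chr2:122147437-122147736, plus strand) one at -139, and Car9 (chr4:43506776-43507075, plus strand) CACGT at -18. The windows of Psmb9, Tap1, H2-K1 and Prph held none of the 4 motifs.
Tyr: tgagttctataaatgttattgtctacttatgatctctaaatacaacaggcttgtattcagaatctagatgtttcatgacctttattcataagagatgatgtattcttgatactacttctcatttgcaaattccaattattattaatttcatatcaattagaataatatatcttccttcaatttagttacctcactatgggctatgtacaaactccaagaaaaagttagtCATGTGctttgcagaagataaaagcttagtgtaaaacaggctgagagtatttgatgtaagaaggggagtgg
Tyrp1: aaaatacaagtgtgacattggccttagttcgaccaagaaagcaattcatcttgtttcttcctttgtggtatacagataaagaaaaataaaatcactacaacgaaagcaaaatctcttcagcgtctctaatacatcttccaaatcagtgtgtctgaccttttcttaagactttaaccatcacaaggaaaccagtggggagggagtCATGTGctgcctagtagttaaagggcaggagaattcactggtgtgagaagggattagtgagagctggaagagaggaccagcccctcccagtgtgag
Igtp: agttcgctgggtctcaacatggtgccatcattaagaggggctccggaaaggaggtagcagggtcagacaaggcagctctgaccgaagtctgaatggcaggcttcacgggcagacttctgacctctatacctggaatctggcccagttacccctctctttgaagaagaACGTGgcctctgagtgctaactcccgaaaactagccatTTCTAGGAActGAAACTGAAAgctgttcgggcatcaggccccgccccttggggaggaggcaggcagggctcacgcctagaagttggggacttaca
Gbp2: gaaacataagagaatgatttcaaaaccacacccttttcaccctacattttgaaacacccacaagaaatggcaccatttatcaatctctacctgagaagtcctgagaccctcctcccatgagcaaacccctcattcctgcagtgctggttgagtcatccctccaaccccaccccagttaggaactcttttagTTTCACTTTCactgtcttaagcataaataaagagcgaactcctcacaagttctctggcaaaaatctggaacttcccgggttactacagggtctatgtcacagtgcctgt
B2m: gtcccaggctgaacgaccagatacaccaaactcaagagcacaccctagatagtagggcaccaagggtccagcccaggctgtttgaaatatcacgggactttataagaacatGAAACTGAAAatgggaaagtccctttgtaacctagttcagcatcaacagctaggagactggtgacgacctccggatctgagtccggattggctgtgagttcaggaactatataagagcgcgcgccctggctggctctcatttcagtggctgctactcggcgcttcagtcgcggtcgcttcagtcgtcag
Car9: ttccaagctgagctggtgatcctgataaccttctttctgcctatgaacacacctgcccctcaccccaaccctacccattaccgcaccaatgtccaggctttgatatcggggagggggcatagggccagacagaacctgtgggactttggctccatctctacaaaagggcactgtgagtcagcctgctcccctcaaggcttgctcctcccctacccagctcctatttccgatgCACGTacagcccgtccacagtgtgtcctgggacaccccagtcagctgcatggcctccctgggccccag

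The summed level of hypoxia and glycolysis genes was about equally high in the Prph-Car9 cells of all 4 libraries, while the median cell differed. The 30 genes of the list summed to 16132 and 17218 CPM in the Prph-Car9 cells of S1 and S2 and to 17863 and 15981 CPM in those of S3 and S4, against 4822 to 5402 CPM in the majority. At equal depth the median Prph-Car9 cell held 45 and 52 UMIs of the list in null S1 and S2. In control S3 and S4 it held 64.5 and 60 UMIs, and the median majority cell held 18 to 20 UMIs by library. Car9, a carbonic anhydrase induced by low oxygen, was at 357 and 208 CPM in null S1 and S2 and at 246 and 374 CPM in control S3 and S4, against 3.54 to 4.77 CPM in the majority. Gapdh, a glycolytic enzyme gene, was at 1453 and 1225 CPM in null S1 and S2 and at 1612 and 1728 CPM in control S3 and S4, against 209 to 278 CPM. Ldha, which turns pyruvate into lactate, pooled to 2382 CPM against 605 CPM, the mitophagy gene Bnip3 to 359 against 43.6 CPM, the glucose transporter gene Slc2a1 to 92.5 against 18.2 CPM, and Vegfa, the angiogenic factor, to 55.8 against 8.89 CPM. Mitochondrial UMIs were a median 3.52% of the Prph-Car9 cells' counts and 5.65% of the majority's. The nuclear genes of oxidative phosphorylation summed to 17841 and 16231 CPM, close to each other.

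Some stress genes of other kinds also stood higher in the Prph-Car9 cells, while others did not. Among the integrated stress response genes, Ddit3 was at 176 and 248 CPM in null S1 and S2 and at 201 and 187 CPM in control S3 and S4, against 58 to 70.3 CPM in the majority. Asns, the asparagine synthetase gene, was at 130 and 128 CPM in null S1 and S2 and at 66.8 and 30.4 CPM in control S3 and S4, against 19.4 to 22.1 CPM. Atf4 itself pooled to 347 CPM in the Prph-Car9 cells and 368 CPM in the majority. The immediate-early genes Fos and Jun, which tissue digestion is known to induce, pooled to 429 and 275 CPM in the Prph-Car9 cells, against 25.4 and 17.2 CPM in the majority. Fos stood higher still in the other kept cells, at 824 to 1184 CPM by library. Hspa5, the chaperone of the endoplasmic reticulum, pooled to 292 against 136 CPM. The unfolded protein response list pooled to 4089 against 3409 CPM, but in S4 it was at 3372 against 3402 CPM. At equal depth its median was 13 UMIs per cell in both populations. The list of p53 targets and cell death lay lower in the Prph-Car9 cells, at 1389 to 1794 CPM by library against 1884 to 2073 CPM in the majority. The lysosome and iron list lay lower too, at 27275 CPM against 50457 CPM. The ferritin light chain gene Ftl1 was at 10737 to 14974 CPM in the Prph-Car9 cells and 33052 to 37051 CPM in the majority.

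Division genes were lower in the Prph-Car9 cells. The 54 genes of the G2/M list summed to 5199 and 4866 CPM in null S1 and S2 and to 5423 and 3191 CPM in control S3 and S4, against 7632 to 7892 CPM in the majority. The S phase list summed to 2204 and 1784 CPM in null S1 and S2 and to 1679 and 1445 CPM in control S3 and S4, against 2553 to 2786 CPM. After thinning of every cell to 3900 UMIs, the median Prph-Car9 cell held 14 G2/M UMIs and the median majority cell 30, and 75.0% and 98.7% of the cells held 5 or more. The G2/M sums are higher than those of the myeloid-rule cells of the same libraries, which hold at least 2 Csf1r UMIs, at most 1 Cd3 UMI and under 10 UMIs of Mlana and Dct and summed to 2254 CPM.

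The genes named in the plot of single cells were not alike across libraries. Tinagl1, an extracellular matrix protein gene, was at 357 and 400 CPM in null S1 and S2 and at 516 and 474 CPM in control S3 and S4. Car6, a secreted carbonic anhydrase, was at 529 and 495 CPM in null S1 and S2 and at 562 and 1033 CPM in control S3 and S4. Prph, the neuronal intermediate filament peripherin, was at 43.3 and 169 CPM in null S1 and S2 and at 165 and 1.38 CPM in control S3 and S4, so that the library S4 carried the sub-cluster almost without Prph. Axl, a receptor kinase of undifferentiated melanoma states, followed the order of the interferon genes, with 36.6 and 120 CPM in null S1 and S2 and 71.3 and 15.2 CPM in control S3 and S4, against 3.27 to 4.91 CPM in the majority. Fibroblast markers summed to 23.3 and 34.3 CPM in null S1 and S2 and to 658 and 18 CPM in control S3 and S4. In S3, 134 of the 141 Col1a1 UMIs of all melanoma cells came from Prph-Car9 cells, of which 8.33% (of 24) held a Col1a1 UMI, against 2.22% of the majority cells of S3.

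**Figure D3:**
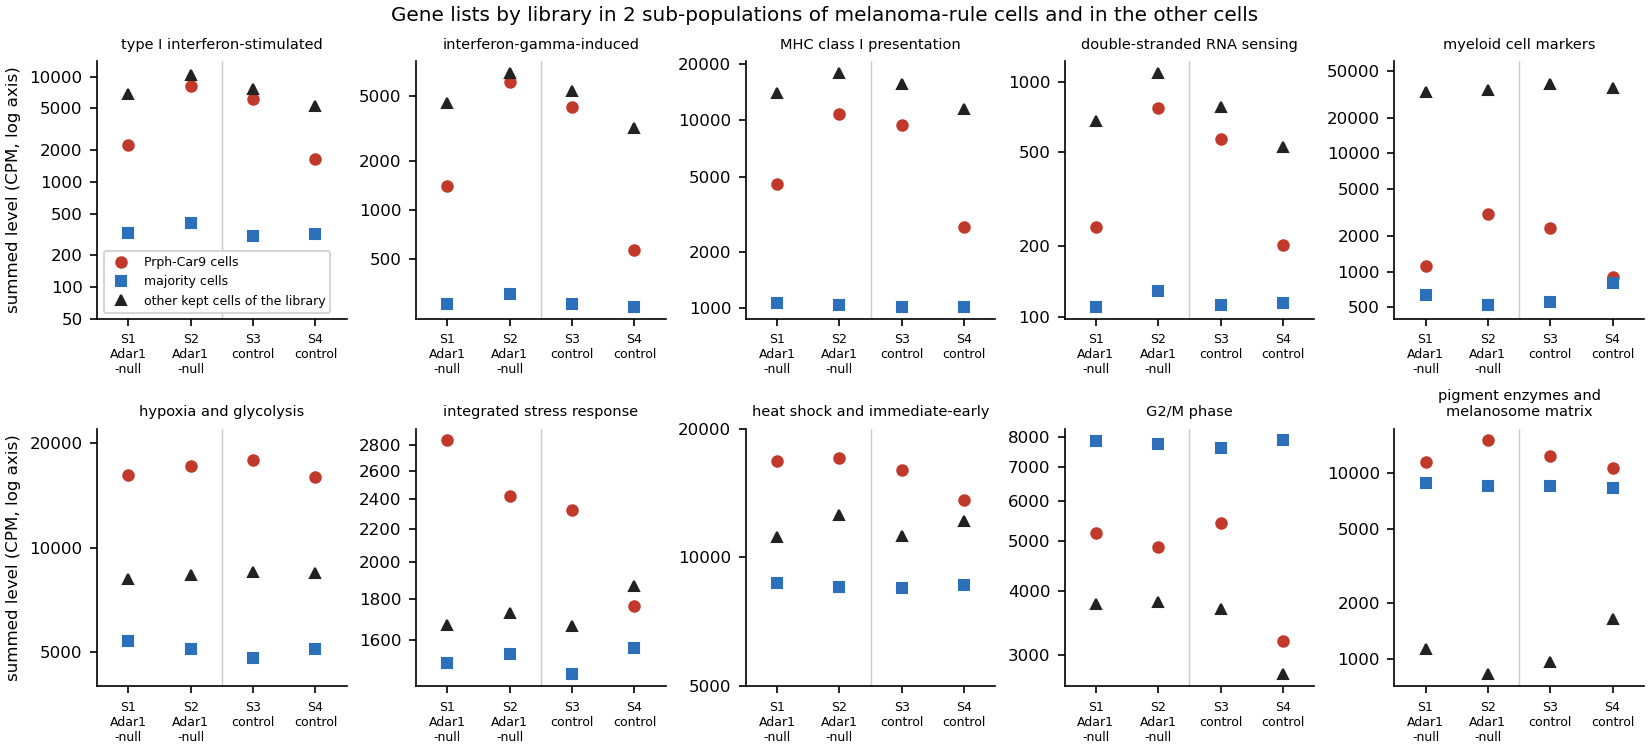
Summed levels of 10 gene lists (CPM, logarithmic y axes that differ between panels) by library (Adar1-null S1 and S2, control S3 and S4) for Prph-Car9 cells (red circles), majority cells (blue squares) and the other kept cells (black triangles). The interferon, MHC class I and RNA sensing sums of the Prph-Car9 cells peak in S2 and S3, the hypoxia sums are even at 15981 to 17863 CPM, and the majority sums change little between libraries.

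Within the majority the clearest axis was division. Of its 5 clusters, 1 of 316 cells was led by Cdc6, Ung and Ccne2, genes of the start of DNA replication, with Uhrf1 at 227 CPM against 109 CPM in the other melanoma cells. Another of 295 cells was led by Prc1, Ccnf and Arhgef39, with Cenpf at 417 against 151 CPM, and one of 167 cells by Ccnb1, Nusap1 and Cdc20, with Ube2c at 677 against 245 CPM. These are genes of mitosis. The cycle lists had again been left out of the clustering, but genes outside them that may vary with the cycle had not. The cluster led by Ccnb1 was uneven over libraries, with 23.1% and 11.1% of the melanoma cells of S1 and S2 and 6.95% and 13.1% of those of S3 and S4. A cluster of 175 cells was led by Mxd4, a Myc antagonist, and Trp53inp1, a p53 target, and also carried more of the stress genes Trib3 (35.7 against 15.7 CPM) and Chac1 (33.7 against 15 CPM). It took 12.6% and 19.6% of the cells of S1 and S2 and 15.4% and 13.1% of those of S3 and S4. The last, of 95 cells, was led by Rpgrip1, D17H6S53E and Notch2, with Actb at 5264 against 1267 CPM, and made up 6.95% to 9.59% of each library.

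At equal depth the UMI counts of these programs differed between majority cells. Counting error in thinned cells widens the ranges below and weakens the correlations, and its part in them was not tested. Low correlations therefore do not show that the programs vary independently. The central 80% of majority cells held between 14 and 47 G2/M UMIs, between 4 and 18 S phase UMIs, and between 20 and 41 UMIs of pigment genes other than Mlana and Dct. For the type I interferon list this range was 0 to 3 UMIs, with a median of 1, and 2.00% of cells held 5 or more, against 70.7% of the Prph-Car9 cells. By library this Prph-Car9 share was 56.0% and 94.7% in null S1 and S2 and 100% and 37.5% in control S3 and S4. Integrated stress response UMIs ran from 2 to 10, and hypoxia and glycolysis UMIs from 12 to 31. Across majority cells the correlation over cells of S phase and G2/M UMIs was -0.12 to -0.13 in the 4 libraries (225 to 311 cells each, thinned, and sharing a library), that of pigment and G2/M UMIs -0.08 to 0.05, that of stress response and G2/M UMIs -0.25 to -0.03, and that of the type I and interferon-gamma lists 0.12 to 0.49. In the 19 to 25 Prph-Car9 cells of a library, the type I and interferon-gamma lists, which share a gene, correlated at 0.37 to 0.83.

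The shares of cells in each state were compared between the genotypes, for which 4 libraries allow no exact permutation p below 0.33. Melanoma cells made up 17.7% and 13.8% of the kept cells in the Adar1-null libraries and 13.2% and 10.4% in the control libraries, a difference of 3.98 percentage points (exact two-sided permutation test, p = 0.33). Leaving out 1 library, the difference was 2.02 points without S1, 5.93 without S2, 5.35 without S3 and 2.60 without S4. Both Adar1-null shares lay above both control shares, but the 95% intervals of S2 (12.3% to 15.5%) and S3 (11.7% to 14.8%) overlapped. The share describes a suspension selected for CD45, not the tumour. Cells with at least 5 G2/M UMIs made up 98.0% and 96.3% in null S1 and S2 and 96.1% and 94.5% in control S3 and S4 (p = 0.33 in the exact permutation test). The difference of 1.83 points was 0.990 without S1 and 1.02 without S4. Cells over the pooled 90th percentile of type I interferon UMIs were 8.57% and 9.23% in null S1 and S2 and 14.3% and 7.22% in control S3 and S4 (exact permutation p = 1). That threshold was 4 UMIs, and 191 cells lay within 1 UMI of it. Cells with 5 or more such UMIs were 2.00% of the majority, 70.7% of the Prph-Car9 cells and 87.1% of the myeloid-marked cells. The same percentile for hypoxia and glycolysis gave 11.7% and 8.49% in null S1 and S2 and 9.65% and 8.93% in control S3 and S4 (exact permutation p = 1). Without the 2 small populations this difference was 7.85 points instead of 0.807, with exact permutation p = 0.33, and with the upper 25% of cells it was 7.44 points. High integrated stress response cells were 9.43% and 8.86% in null S1 and S2 and 5.79% and 6.87% in control S3 and S4, a difference of 2.81 points (exact permutation p = 0.33), and the groups did not overlap. Cells in the lowest pooled 10% of pigment UMIs were 12% and 9.96% in null S1 and S2 and 14.7% and 13.1% in control S3 and S4, a difference of -2.88 points (exact permutation p = 0.33). Without thinning, the differences were 0.180, -0.987, 0.820, 3.4 and -0.926 points for G2/M, interferon, hypoxia, stress response and low pigment.

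**Figure D4:**
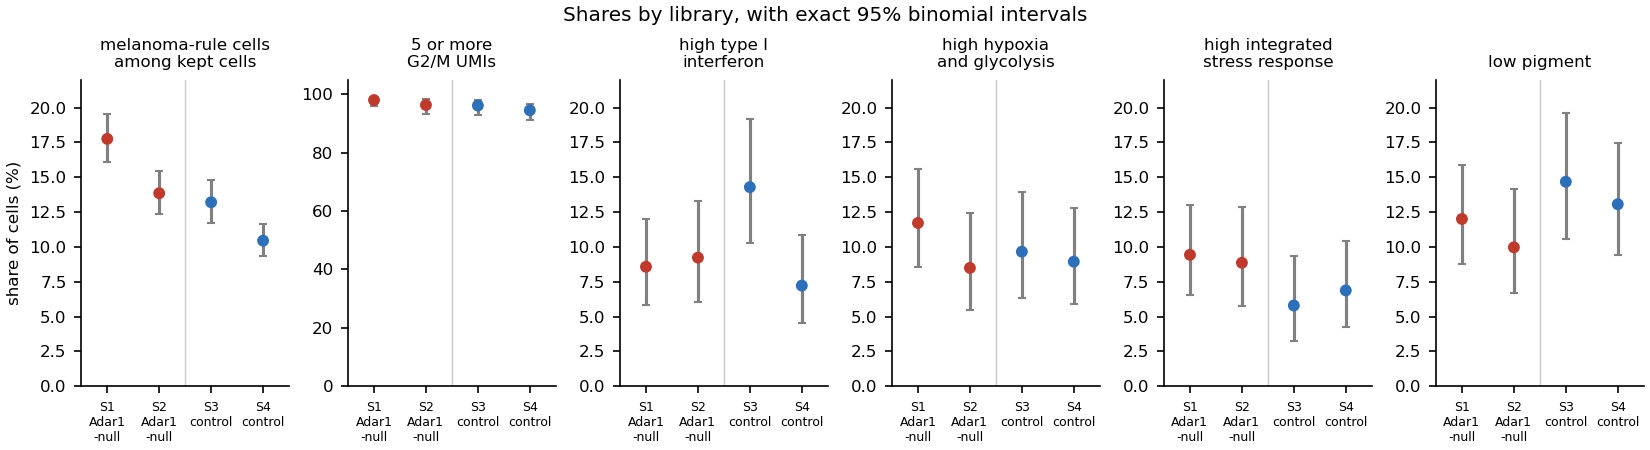
Share of melanoma cells among kept cells, and share of melanoma cells in each of 5 states at equal depth (percent, y axis), by library, with Adar1-null in red and control in blue; bars are 95% Clopper-Pearson intervals of counting error. The intervals of single libraries overlap between genotypes in the G2/M, interferon, hypoxia, stress and low-pigment panels.

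The effect of Adar1 loss on the melanoma cells themselves was asked by comparing summed counts of the 2 Adar1-null with the 2 control libraries. Adar had 96 and 116 UMIs (9.58 and 13.1 CPM) in null S1 and S2, and 101 and 131 UMIs (11.5 and 12.5 CPM) in control S3 and S4. The groups overlapped, and the log2 change was -0.10 ± 0.16 (SE; adjusted p = 0.997 in edgeR's quasi-likelihood test, adjusted after Benjamini-Hochberg). A 3′ tag counts transcripts whether or not their coding sequence was edited, so this level does not check the labels. Of 11361 genes tested, 3 were called (0.0264%), 2 higher (0.0176%) and 1 lower (0.0088%) in Adar1-null cells. DESeq2 called 5, of which 1, Gm28727, was among the 3, and 506 genes (4.45%) had an unadjusted edgeR p under 0.05, 268 higher and 238 lower. The count moved with single libraries, to 46 without S1, 12 without S2, 127 without S3 and 76 without S4.

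The called genes, of which Gm28727 and Gzmf are described, were not of the interferon, pigment or stress lists. Gm28727, a predicted gene whose reads may be shared with near-identical copies so that its level is uncertain, was at 11 and 17.3 CPM in null S1 and S2 and at 5.25 and 4.59 CPM in control S3 and S4. Its log2 change was 1.51 ± 0.22 (edgeR with Benjamini-Hochberg adjustment, adjusted p = 0.0189). Gzmf, a granzyme gene of cytotoxic lymphocytes, was at 0.599 and 0.113 CPM in null S1 and S2 and at 2.62 and 5.07 CPM in control S3 and S4, a log2 change of -3.36 ± 0.54 (edgeR, adjusted p = 0.0414). The other kept cells carried the same order for both. Gm28727 was there at 14.3 and 20.5 CPM in null S1 and S2, against 7.45 and 6.86 CPM in control S3 and S4. Gzmf stood in T-cell-rule cells (at least 2 Cd3 UMIs, at most 1 Csf1r UMI and under 10 of Mlana and Dct) at 235 and 92.6 CPM in null S1 and S2 and at 1032 and 2977 CPM in control S3 and S4; whether free RNA gives the melanoma cells' Gzmf counts was not tested. Without S2, the edgeR adjusted p was 0.0533 for Gm28727 and 0.0853 for Gzmf, and without S4 it was 0.0775 for Gzmf. With Mlana and Dct at 20 or more it was 0.0530 for both genes, and with the immune genes at 0 it was 0.0828 for Gzmf. DESeq2 gave Gzmf an adjusted p of 0.0890. In the cells with at most 5% mitochondrial UMIs, edgeR did not call Gm28727, and Gzmf was not tested.

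**Figure D5:**
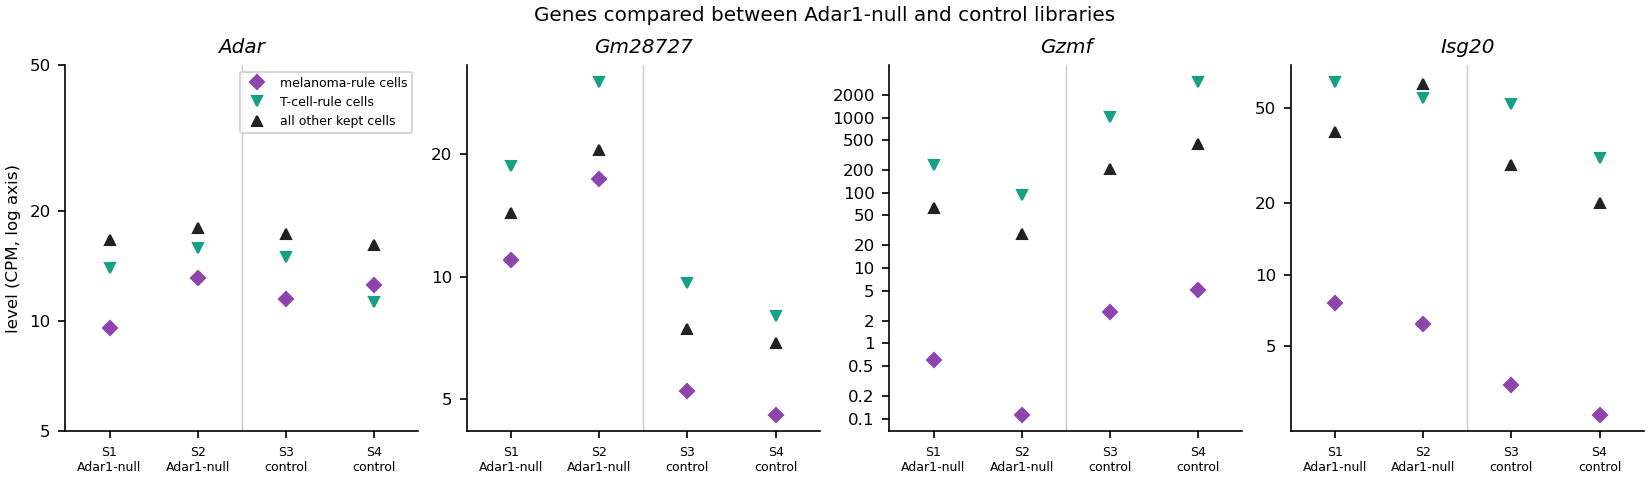
Levels of Adar, Gm28727, Gzmf and Isg20 (CPM, logarithmic y axes that differ between panels) in melanoma cells (purple diamonds), T-cell-rule cells (green triangles) and all other kept cells (black triangles), by library. Gm28727 and Isg20 lie higher and Gzmf lower in null S1 and S2 than in control S3 and S4 in all 3 classes of cells, and Adar overlaps between the genotypes in melanoma cells.

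Next to the called genes stood some that missed the threshold. Isg20, an interferon-stimulated exonuclease gene, was at 7.59 and 6.23 CPM in null S1 and S2 and at 3.42 and 2.58 CPM in control S3 and S4 (log2 change 1.21 ± 0.24, edgeR adjusted p = 0.0798). The Prph-Car9 cells gave 112 of its 188 UMIs, and there it was at 59.9 and 64.7 CPM in null S1 and S2 and at 15.6 and 13.8 CPM in control S3 and S4 (log2 change 2.02 ± 0.38, edgeR adjusted p = 0.624). In the majority it was at 1.60 and 2.54 CPM in null S1 and S2 and at 1.44 and 1.76 CPM in control S3 and S4. Aif1, Phb, Gm17669, Gm7808 and Rpl36-ps3 (the last 2 and Phb with possible near-identical copies) also lay higher in Adar1-null cells, with edgeR adjusted p between 0.0798 and 0.0971, and Fcgrt, Egr1, 1190005I06Rik and Rnase4 lower, with adjusted p of 0.0787 to 0.0798. Egr1, an immediate-early gene, was at 3.99 and 2.94 CPM in null S1 and S2 and at 7.98 and 7.08 CPM in control S3 and S4.

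No gene of the 22 lists was called. Over all genes tested 49.4% had a positive log2 change, 16.9% lay higher without overlap of the groups and 14.7% lower (31.6% in either direction), and the median change was 0.00. Of the 50 tested type I interferon-stimulated genes 36 changes were positive, 6 lay higher without overlap and 0 lower, and the median was 0.19. The interferon-gamma list had a median of 0.08 with 1 of 25 genes higher without overlap, and the MHC class I list 0.03 with none of 21 separated in either direction. The double-stranded RNA sensing list had a median of -0.01, with 4 of 19 genes higher and 2 lower without overlap. Ifih1, the double-stranded RNA sensor, was at 2.70 and 4.87 CPM in null S1 and S2 and at 2.62 and 1.63 CPM in control S3 and S4 (log2 change 0.83 ± 0.35, edgeR adjusted p = 0.997). The medians of the type I, interferon-gamma and class I lists were 0.53, 0.34 and 0.09 without S1, -0.19, -0.44 and -0.11 without S2, 1.03, 1.52 and 0.88 without S3, and -0.22, -0.52 and -0.48 without S4, so the direction of these lists rests on single libraries of both genotypes.

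The medians of the pigment, division and stress lists lay near 0. The pigment enzyme list had a median of 0.02, with Pmel at a log2 change of 0.25 ± 0.09 (edgeR adjusted p = 0.979). Mreg, which acts in melanosome transfer, was at 31.8 and 31.7 CPM in null S1 and S2 and at 21.1 and 25.4 CPM in control S3 and S4 (log2 change 0.44 ± 0.11, edgeR adjusted p = 0.197). The G2/M list had a median of 0.02, with 14 of 54 genes higher and 2 lower without overlap, and the S phase list -0.02, with 6 of 42 higher and 8 lower. Cdc6, which loads the replication helicase, was at 10.9 and 10.2 CPM in null S1 and S2 and at 16.2 and 13.5 CPM in control S3 and S4 (edgeR adjusted p = 0.602). In the integrated stress response list, with a median of 0.00, Asns was at 32.4 and 28.3 CPM in null S1 and S2 and at 25.3 and 20.4 CPM in control S3 and S4, and Phgdh, of serine synthesis, at 104 and 82.9 CPM in null S1 and S2, against 73.2 and 73.1 CPM in control S3 and S4. Neither passed the test (edgeR adjusted p = 0.438 and 0.666). Hypoxia and glycolysis genes had a median of -0.05, with 4 of 30 higher and 7 lower without overlap, and the unfolded protein response list 0.04, with 6 of 22 higher and 1 lower. The remaining lists, oxidative phosphorylation, heat shock, p53, lysosome, melanosome transport and melanocyte regulators, had medians between -0.06 and 0.05, and the list of neural-crest genes -0.11. Among markers of other cells, 12 of 13 tested T and NK cell genes had positive changes, with a median of 0.47, 8 higher and 0 lower without overlap. The myeloid markers had a median of -0.09 and the fibroblast markers one of -1.84, which was -0.08 without the Prph-Car9 and myeloid-marked cells. The T and NK cell markers summed to 85.2 and 130 CPM in melanoma cells of S1 and S2 and to 63.9 and 112 CPM in those of S3 and S4, and in the other kept cells to 3643 and 5954 CPM in null S1 and S2 and to 4172 and 2527 CPM in control S3 and S4; their part in the result was not tested.

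Split by population, the majority gave 7 calls of 11143 genes tested (0.0628%) and the Prph-Car9 cells none of 7230 (0%). In the majority 5 genes were higher (0.0449%), among them Gm28727, Gm10020, Phb and Ly6c2, and Gzmf and Cd209f were lower (0.0179%) in Adar1-null cells (Gm28727, Gm10020 and Phb may share reads with near-identical copies), and DESeq2 called 1. An unadjusted edgeR p under 0.05 was reached by 4.33% of genes. In the majority 34 of 40 tested type I interferon-stimulated genes had positive changes, 14 higher and 2 lower without overlap, against 49.9% positive, 16.4% higher and 15.1% lower over all genes (31.5% in either direction). The T and NK cell markers of the same cells had 12 of 13 positive changes, 6 higher and 0 lower without overlap, and a median of 0.65; their part in the interferon count was not tested. Phb, a mitochondrial scaffold protein gene, was at 73.1 and 87.3 CPM in null S1 and S2 and at 53.3 and 60.1 CPM in control S3 and S4 (log2 change 0.49 ± 0.09, edgeR adjusted p = 0.0166). Ly6c2, a gene of monocytes and T cells, was at 5.82 and 9.19 CPM in null S1 and S2 and at 3.27 and 1.87 CPM in control S3 and S4. In the other kept cells it was at 231 and 552 CPM in null S1 and S2 and at 205 and 87.2 CPM in control S3 and S4. In the Prph-Car9 cells, 233 genes (3.22%) had an unadjusted edgeR p under 0.05, 110 higher and 123 lower, and DESeq2 called 0. Of 43 type I interferon-stimulated genes tested there 32 changes were positive, 1 lay higher and 0 lower without overlap, and the median was 0.54, against 49.7% positive, 16.7% higher and 13.1% lower over all genes (29.8% in either direction). Cryab was there at 352 and 457 CPM in null S1 and S2 and at 677 and 916 CPM in control S3 and S4 (log2 change -1.02 ± 0.24, edgeR adjusted p = 0.624), and Asns had a log2 change of 1.35 ± 0.35 (edgeR adjusted p = 0.930).

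Whether melanoma cells answered the genotype unlike immune cells of the same libraries was tested as the difference between both responses, each library being its own control. Against the myeloid-rule cells 0 of 12394 genes were called (0%; edgeR), with 378 higher and 230 lower at an unadjusted p under 0.05, and DESeq2 called 0. The count was 15 without S1, 0 without S2, 215 without S3 and 17 without S4. Against the T-cell-rule cells 48 of 12180 genes were called (0.394%), 9 with a higher and 39 with a lower response in melanoma cells, and DESeq2 called 12. Without S2 the count was 76 and without S3 it was 30. Gzmc, a granzyme gene, was at 2.90 and 1.70 CPM in melanoma cells of S1 and S2 and at 1.37 and 2.58 CPM in those of S3 and S4. In T-cell-rule cells it was at 379 and 145 CPM in null S1 and S2 and at 1061 and 1628 CPM in control S3 and S4. Col1a1, a collagen gene, was at 0.799 and 0.906 CPM in melanoma cells of S1 and S2 and at 16.1 and 2.30 CPM in those of S3 and S4, but at 46.1 and 31.2 CPM in T-cell-rule cells of S1 and S2 and at 0.624 and 0.889 CPM in those of S3 and S4. In S3, 134 of the 141 Col1a1 UMIs came from Prph-Car9 cells, as given above.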

How the data were processed

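The deposited file holds raw UMI counts per gene and cell barcode, made by the authors from 10x 3′ v2 reads; the submitters' processing notes name Cell Ranger (version not given in the sources used here), Seurat 2.2.0 and mm10. Libraries were read from the barcode suffix. The total was 8767029 to 10455551 UMIs over the melanoma cells of a library; intervals cover counting error only. Counts were summed per library and population and tested with edgeR 4.0.16 (TMM, robust quasi-likelihood, default filter on low counts, Benjamini-Hochberg at 0.05, R 4.3.3), with DESeq2 1.42.0 as an alternative. The fits were tested on simulated data with the same fixed dispersion for every gene of a comparison. The recovered shares below need not hold for genes that vary more between libraries. Of simulated 2-fold changes, 86.6% were recovered in all melanoma cells and 6.15% in the Prph-Car9 cells. For the difference in response, 28.4% were recovered against myeloid-rule cells and 50.7% against T-cell-rule cells. The absence of calls in the Prph-Car9 cells and against the myeloid-rule cells therefore does not show that no gene differed. Differences in response to other cell classes were fitted with the library as a term. Shares were compared by exact permutation (SciPy 1.17.1) after thinning to 3900 UMIs. Doublets were scored with Scrublet and kept. Sub-clusters came from scanpy 1.11.5 and leidenalg 0.10.2 (2000 variable genes, 20 components, 20 neighbours, resolution 0.5). Mitochondrial genes and the listed interferon, MHC, RNA sensing and cycle genes were left out of the clustering. The members and lists were chosen with earlier results of these data known. The sub-cluster settings, Prph, Car9, Tinagl1 and Car6, the promoters, the motifs and the added alternatives were chosen after seeing the data. Genes named in comparisons were Adar, the markers, the called genes, the smallest p in each direction and in each list; listed genes without a row were not analysed here. Some results are not reported here.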

Additional observations from a re-analysis of the deposited data

Results flagged for a closer look

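The genes below are flagged because their response to the genotype differed between melanoma cells and T-cell-rule cells of the same libraries, by a test of that difference (edgeR with Benjamini-Hochberg adjustment). Values are the log2 change in melanoma cells minus that in T-cell-rule cells.

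Relatively higher in melanoma cells were Gzmc (2.63), Ly6c2 (1.90), Ptprcap (1.14), Tubb6 (0.94), Hilpda (0.84), Nkg7 (0.82), Uhrf2 (0.65), H1f0 (0.61) and Id2 (0.57). Several of these are lymphocyte genes that are scarce in melanoma cells. Nkg7, a cytotoxic granule gene, was at 8.59 and 14.2 CPM in melanoma cells of S1 and S2 and at 8.44 and 6.03 CPM in those of S3 and S4. In T-cell-rule cells it was at 2088 and 2822 CPM in null S1 and S2 and at 3110 and 2312 CPM in control S3 and S4. Hilpda, a hypoxia-induced lipid droplet gene, was at 49.0 and 38.3 CPM in melanoma cells of S1 and S2 and at 43.0 and 55.7 CPM in those of S3 and S4, against 101 and 93.5 CPM in T-cell-rule cells of S1 and S2 and 150 and 239 CPM in those of S3 and S4.

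Relatively lower in melanoma cells were Col8a1 (-13.37), Apod (-13.09), Cxcl14 (-12.62), Ccdc80 (-10.15), Col6a1 (-9.01), Col1a1 (-8.94), Igfbp3 (-7.75), Mfap5 (-6.50), Fstl1 (-5.05), Cald1 (-3.41) and Isg15 (-0.80). Col8a1 was at 0.200 and 0 CPM in melanoma cells of S1 and S2 and at 4.90 and 0.574 CPM in those of S3 and S4, against 11.4 and 3.78 CPM in T-cell-rule cells of S1 and S2 and 0 and 0 CPM in those of S3 and S4. Single cells carried many of these counts. All 43 Col8a1 UMIs of S3 came from 4.17% of its 24 Prph-Car9 cells, and the 41 Col8a1 UMIs of T-cell-rule cells in S1 from 0.248% of its 403 such cells. Of the Prph-Car9 cells of S3, the same 4.17% share (1 cell) held all of their Cxcl14, Igfbp3, Col6a1 and Mfap5 UMIs, gene by gene. Fitted values of genes at 0 in some libraries depend on the prior count and are no bound. Isg15, an interferon-stimulated ubiquitin-like gene chosen after its values were seen, was at 19.5 and 29.7 CPM in melanoma cells of S1 and S2 and at 27.0 and 12.9 CPM in those of S3 and S4, against 98.6 and 164 CPM in T-cell-rule cells of S1 and S2 and 73.6 and 42.7 CPM in those of S3 and S4.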

How the results depend on the processing

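No paired analysis was possible because the library names carry no replicate number of the labels. Of the comparison-level values under other settings, 83 kept their direction or, for counts, lay within 1.5 times, 23 moved and 7 reversed; the size of those kept could still change. The 3 calls in melanoma cells became 88 without a filter on low counts, 1 with Mlana and Dct at 20 or more, 6 at 5 or more, 10 with the immune genes at 0, 6 without doublets, 1 at 5% mitochondrial UMIs or less, 7 without the Prph-Car9 and myeloid-marked cells, 0 in Prph-Car9 cells alone, 5 with DESeq2, and 12 to 127 leaving out 1 library. Without a filter, the difference from myeloid-rule cells gave 119 calls instead of 0 (0 to 215 leaving out 1 library) and that from T-cell-rule cells 129 instead of 48 (30 to 76), with 12 by DESeq2. The interferon-high share difference of -1.85 points was 2.10 with a 25% tail, 0.0744 without both small populations, and -5.39 to 1.68 leaving out 1 library. Thinned to 2000 UMIs, the hypoxia difference was -0.326 (-0.807 to 2.42 leaving out 1 library), the stress response difference -1.15 and the low-pigment difference 0.140. Of 22 list medians, 11 were positive, 17 in Prph-Car9 cells alone and 5 to 13 leaving out 1 library. The log2 change of Adar was 0.030 with the immune genes at 0, 0.70 in Prph-Car9 cells alone and -0.33 to 0.11 leaving out 1 library. The cause of these changes was not tested. With 1 library left out, the lone library is assumed to vary like the other group. With 2 libraries a group, the smallest exact p is 0.33.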

Other observations

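The 31 myeloid-marked cells were mixed in their markers. Their myeloid markers summed to 10278 and 19905 CPM in null S1 and S2 and to 11870 and 13796 CPM in control S3 and S4, while their pigment enzyme list summed to 7351 and 6840 CPM in null S1 and S2 and to 7575 and 6052 CPM in control S3 and S4. In S4, the 5 such cells also carried 4296 CPM of T and NK cell markers, against 141 to 223 CPM in the other libraries.

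Red cell genes marked 1 library. The erythroid markers summed to 0 and 0.242 CPM in majority cells of S1 and S2 and to 1.44 and 58.1 CPM in those of S3 and S4, and the other kept cells had 0.143 and 0.538 CPM in null S1 and S2 and 2.31 and 1267 CPM in control S3 and S4.

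Id2, an inhibitor of helix-loop-helix factors, was among the genes that stood lower in the Prph-Car9 cells, at 139 and 322 CPM in null S1 and S2 and 158 and 124 CPM in control S3 and S4, against 416 to 519 CPM in the majority. Hilpda stood higher there, at 245 and 187 CPM in null S1 and S2 and 128 and 200 CPM in control S3 and S4, against 28.1 to 44.0 CPM.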
